A study of Rattus norvegicus with 12 samples.

Results

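Thrombospondins are secreted glycoproteins of the extracellular matrix, and the ADAMTS proteases (a disintegrin and metalloproteinase with thrombospondin motifs) are secreted enzymes that join a zinc protease domain to the type of repeat first described in thrombospondin. The genes described here are 3 thrombospondins, Thbs1, Thbs2 and Thbs3, and 4 proteases, Adamts1, Adamts4, Adamts5 and Adamts9, measured in rat kidney by RNA sequencing. They were chosen by name with the differences between the groups of these same libraries known. Which of the 3 comparisons entered the choice is not recorded, so the members' own group differences are given as a description, without a p-value, in all 3. Each of the 7 symbols matched 1 row of the count table, which held 30208 genes, 20455 of them with a read in any library, and all 7 passed the filter on low counts.

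The products of Thbs1 and Thbs2 form trimers that bind cell-surface receptors such as CD47 and the integrins, block the growth of blood vessels and are cleared with bound proteases through the scavenger receptor LRP1. The product of Thbs1 is also stored in platelets, can release TGF-beta from its latent form and restrains nitric oxide signalling through CD47. The product of Thbs3 belongs to the subgroup that forms pentamers. Adamts1, Adamts4, Adamts5 and Adamts9 belong to the ADAMTS enzymes that cut large chondroitin sulphate proteoglycans such as versican and aggrecan, and are held in check by TIMP proteins. Mice without Adamts1 have malformed urinary tracts.

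The 12 libraries came from kidney tissue in 3 groups of 4. Sham controls carry neither bypass nor nitrite in their label, libraries labelled CPB followed cardiopulmonary bypass, in which a pump and oxygenator take over from heart and lungs, and those labelled CPB+Nitrite followed bypass with nitrite, an ion that tissues can convert to nitric oxide. The labels name no strain, sex, age, nitrite dose, bypass duration or sampling time, and do not state that replicates are separate animals, so p-values measure the spread between these samples. The series asks how bypass injures the kidney and whether nitrite protects it.

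Libraries held 16.8 to 25.8 M reads (M, mega). Levels are counts-per-million (CPM) after scaling with edgeR's TMM factors, and as no transcript lengths were used they are compared between libraries and not between genes. On the first principal component the sham libraries lay at -73.9 to -37.4 (sham 3 highest), the CPB libraries at 46.8 to 76.0, and the CPB+Nitrite libraries at 42.4, -49.8, -33.3 and 27.3. CPB+Nitrite 2 stood apart on the second component at -91.9, with every other library between -36.4 and 27.6. Its endothelial markers summed to 2585 CPM against 162 to 482 in the sham and CPB libraries, with all 10 markers above 0 in every library, and Plvap alone at 1381 CPM. The kidney label was borne out by 6 of 6 proximal tubule markers above 0 in every library (summed CPM 4804 to 5758 for sham, 3180 to 4026 for CPB, 3338 to 4125 for CPB+Nitrite). In bulk tissue, fewer cells of a type and less RNA per cell cannot be told apart.

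The sequence upstream of the start site is shown for the 3 genes with the highest log2 changes in CPB against sham, since they were high in the same group of libraries. RefSeq's table for the assembly GRCr8 held 5 of the 7 members (Thbs1, Thbs3, Adamts1, Adamts4 and Adamts9). The 250 bases before the start site are given 5' to 3' on the gene's own strand, at chr3:125510000-125510249 (plus strand) for Thbs1, chr11:38427385-38427634 (minus strand) for Adamts1 and chr13:86202761-86203010 (plus strand) for Adamts4, and capitals mark the motif matches described next.
Thbs1: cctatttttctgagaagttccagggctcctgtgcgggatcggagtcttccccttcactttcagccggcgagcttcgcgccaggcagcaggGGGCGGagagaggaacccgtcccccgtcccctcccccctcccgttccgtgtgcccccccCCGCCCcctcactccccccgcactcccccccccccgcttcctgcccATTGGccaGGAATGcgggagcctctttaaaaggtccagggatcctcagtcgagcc
Adamts1: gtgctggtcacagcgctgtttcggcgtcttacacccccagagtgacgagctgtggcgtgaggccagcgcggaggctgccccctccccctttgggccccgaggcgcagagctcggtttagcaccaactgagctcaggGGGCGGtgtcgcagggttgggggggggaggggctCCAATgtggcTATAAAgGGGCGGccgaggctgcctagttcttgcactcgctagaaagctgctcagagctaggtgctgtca
Adamts4: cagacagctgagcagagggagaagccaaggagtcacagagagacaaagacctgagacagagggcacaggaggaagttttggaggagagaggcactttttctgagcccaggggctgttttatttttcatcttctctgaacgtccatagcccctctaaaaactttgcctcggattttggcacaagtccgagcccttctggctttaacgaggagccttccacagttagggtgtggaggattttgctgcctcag

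A search of both strands covered 10 motifs: the AP-1 element TGANTCA, the cAMP response element TGACGTCA, the TEAD element GGAATG, the TATA box TATAAA, the CCAAT box CCAAT, the hypoxia response core ACGTG, the GC box GGGCGG, the heat-shock element GAANNTTC, and the CArG box and the NF-kappaB element by their usual consensus. The Thbs1 window held GGAATG at -47 to -42, a CCAAT box on the minus strand at -55 to -51 and GC boxes starting at -160 and -101. The Adamts1 window held TATAAA at -70 to -65, a CCAAT box at -80 to -76 and GC boxes starting at -114 and -63. The Adamts4 window held no match to any of the 10. For the windows not printed, Thbs3 had a CCAAT box and a GC box, and Adamts9 had a CCAAT box and, at -57 to -48, an NF-kappaB element that overlaps a GC box at -49 to -44. Over 27457 rat promoter windows of that length, the share with a match was 11.8% for the TEAD element, 13.1% for the TATA box, 34.3% for the CCAAT box, 32.4% for the GC box and 6.41% for the NF-kappaB element. The motifs without a match in these windows occurred in 6.36% (AP-1), 1.7% (cAMP response), 16.9% (hypoxia response), 7.02% (heat shock) and 1.5% (CArG box) of promoters. GC content was 67.6% for Thbs1, 65.2% for Adamts1 and 51.2% for Adamts4, against a median of 52.0%. A match describes the letters and not a bound site.

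After bypass, Thbs1, Adamts1, Adamts4 and Adamts9 were higher than in sham, Thbs2 was lower, and Thbs3 and Adamts5 overlapped between the groups. From sham to CPB, the mean level went from 77.3 ± 25.0 to 223 ± 103 CPM for Thbs1 (mean ± SD, n = 4 per group) and from 92.7 ± 108 to 664 ± 120 for Adamts1. For Adamts4 it went from 2.59 ± 2.59 to 24.4 ± 11.6 CPM, for Adamts9 from 9.38 ± 1.79 to 21.3 ± 6.32 and for Thbs2 from 5.96 ± 1.31 to 2.22 ± 0.487. At the threshold used for all genes (edgeR's quasi-likelihood test, Benjamini-Hochberg adjusted p below 0.05), 5 of the 7 passed, 4 higher and 1 lower, where 43.2% of the 14664 genes tested passed, 21.7% higher and 21.5% lower. Of the calls over all genes 50.3% were higher, or 34.8% when libraries were scaled by total counts alone, which changed no member's direction in this comparison. The groups did not overlap for the same count of 5 of 7, against 48.2% of all genes. Since the members were selected on such differences, nothing is read from these counts.

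**Figure D1:**
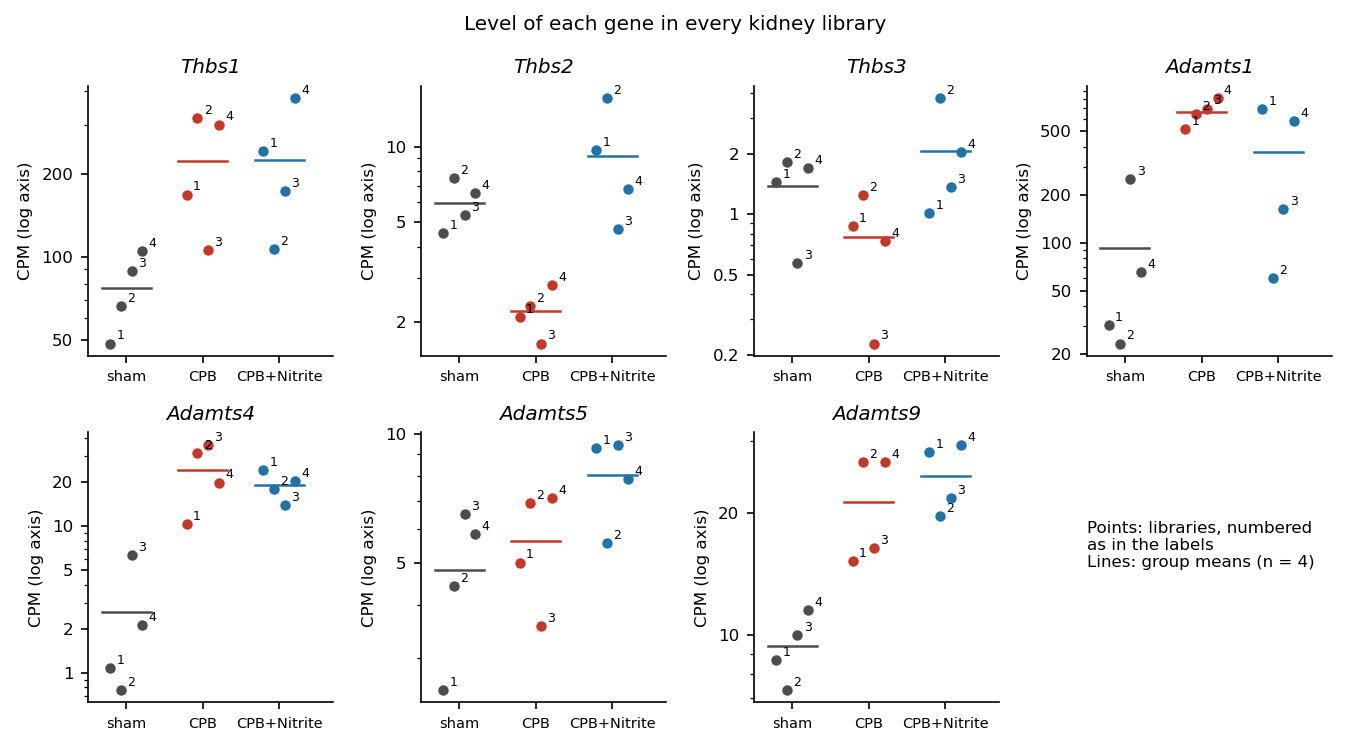
CPM of each of the 7 genes (vertical log axis) in every library, by group (horizontal axis); points are libraries numbered as in the labels and lines are group means (n = 4). In CPB, Thbs1, Adamts1, Adamts4 and Adamts9 lie above every sham library and Thbs2 lies below, while the CPB+Nitrite libraries of Adamts1 spread from 60.0 to 690 CPM.

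Thbs1 (ENSRNOG00000045829) lies on chromosome 3 at 105056292 to 105071440, plus strand, in the files' build mRatBN7.2. Its sham libraries held 48.5, 66.3, 89.1 and 105 CPM, and its CPB libraries 168, 318, 106 and 301. The CPB+Nitrite libraries held 241, 107, 173 and 375 CPM. No library with bypass fell within the sham range, but CPB 3 and CPB+Nitrite 2 lay just above the highest sham library, and the CPB and CPB+Nitrite groups covered nearly the same range. The log2 change was 1.53 with a standard error (SE) of 0.42 in CPB against sham and 1.53 with an SE of 0.42 in CPB+Nitrite against sham. Between CPB+Nitrite and CPB it was 0.00 with a 95% confidence interval of -0.91 to 0.92, so changes in either direction of up to about that size remain within the error. Fsip1, on the opposite strand, overlaps 2898 bp of the gene and had a mean of 19.25 reads per library.

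Thbs2 (ENSRNOG00000010529, chromosome 1, 55670394 to 55699789, minus strand) encodes the thrombospondin best known from fibroblasts and from collagen fibril assembly. Sham libraries held 4.51, 7.48, 5.32 and 6.53 CPM, CPB libraries 2.09, 2.32, 1.64 and 2.81, and CPB+Nitrite libraries 9.72, 15.6, 4.70 and 6.80. Every CPB library lay below every sham and every CPB+Nitrite library, while sham and CPB+Nitrite overlapped. Its log2 change was -1.43 (SE 0.35) in CPB against sham, 2.06 (SE 0.35) in CPB+Nitrite against CPB and 0.63 (SE 0.33) in CPB+Nitrite against sham. Without CPB+Nitrite 2, the library with the highest level, the change from CPB was 1.68.

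Markers of fibroblasts, pericytes and smooth muscle moved in the same direction as Thbs2. Of 12 such genes, 7 fell in CPB against sham, none rose and 5 did not pass, and their median log2 change was -1.42 against -0.05 for all genes. Summed over the list, sham libraries reached 153 to 656 CPM, CPB libraries 108 to 169 and CPB+Nitrite libraries 251 to 486, and all 12 were above 0 in every library. The contractile gene Tagln had means of 67.0 CPM in sham (range 32.5 to 139) and 22.5 in CPB (12.7 to 31.3). For the contractile gene Myh11 they were 78.4 (13.5 to 242) and 14.4 CPM (4.98 to 31.7), with overlapping ranges. The collagen-binding proteoglycan Dcn had means of 51.9 (20.4 to 70.0) and 30.6 CPM (26.1 to 33.8), and its ranges overlapped too. As a percentage of the summed markers, Thbs2 stood at 0.686, 2.73, 3.47 and 2.25 (sham), 1.74, 1.61, 1.51 and 1.66 (CPB) and 2.92, 3.21, 1.62 and 2.71 (CPB+Nitrite). On this ratio both sham and CPB+Nitrite overlapped with CPB. Sham 1, which had the highest marker sum (656 CPM), lay below every CPB library, and CPB+Nitrite 3 lay within the CPB range. The other sham and CPB+Nitrite libraries lay above that range. The share of these cell types in the Thbs2 difference was not tested.

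**Figure D2:**
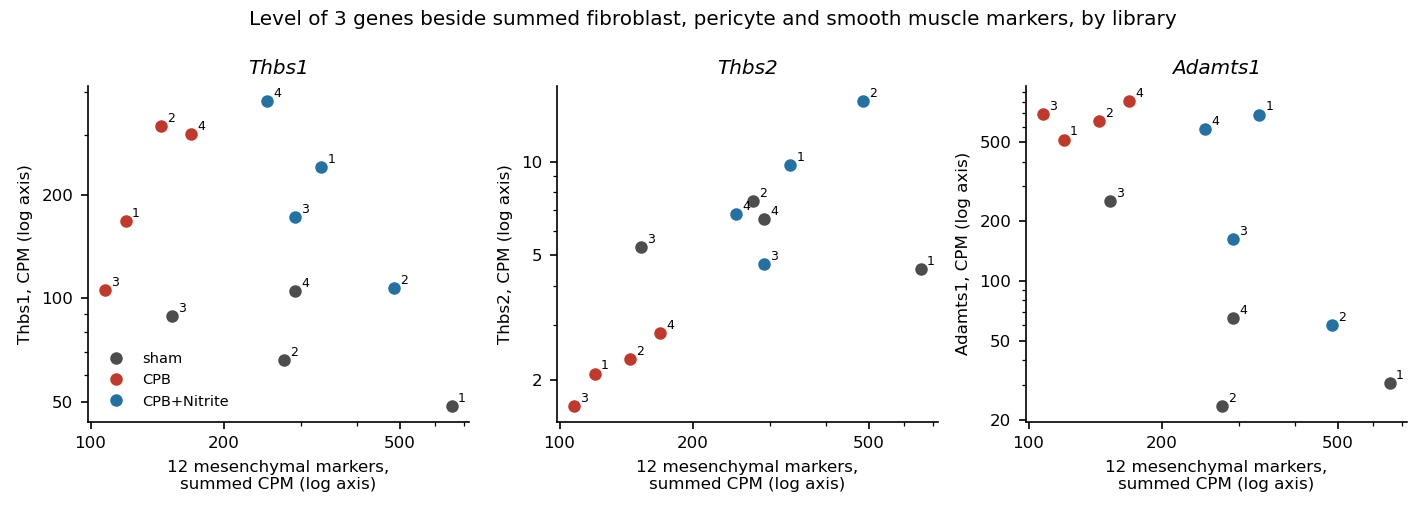
CPM of Thbs1, Thbs2 and Adamts1 (vertical log axes) against the summed CPM of 12 fibroblast, pericyte and smooth muscle markers (horizontal log axes); each point is 1 library, coloured by group and numbered as in the labels. The 4 CPB libraries hold the lowest Thbs2 levels (1.64 to 2.81 CPM) and 4 of the 5 lowest marker sums, while their Adamts1 levels are the highest group range, 516 to 805 CPM.

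Thbs3 (ENSRNOG00000059903, chromosome 2, 174621812 to 174633594, plus strand) was the member with the fewest reads, with 4 to 103 per library. Its levels were 1.45, 1.81, 0.572 and 1.69 CPM in sham, 0.869, 1.24, 0.227 and 0.737 in CPB, and 1.01, 3.77, 1.37 and 2.04 in CPB+Nitrite. The lowest sham library lay below 3 of the 4 CPB libraries, and all groups overlapped. The log2 change was -0.83 (SE 0.55) in CPB against sham and 1.41 (SE 0.55) in CPB+Nitrite against CPB, or 0.93 without CPB+Nitrite 2. Like Thbs2, it was highest in CPB+Nitrite 2 and lowest in CPB 3.

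The relation of Thbs1 to Thbs2 within a library sets the contrast between them apart from overall scaling. The log2 ratio of Thbs1 to Thbs2 counts was 3.43, 3.15, 4.07 and 4.01 in sham and 6.33, 7.10, 6.01 and 6.74 in CPB. It was 4.63, 2.78, 5.20 and 5.78 in CPB+Nitrite. The means were 3.66 ± 0.45, 6.54 ± 0.47 and 4.60 ± 1.30 (SD, n = 4 each), so every CPB library exceeded every other library, and CPB+Nitrite 2 lay below the sham range.

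Adamts1 (ENSRNOG00000001607, chromosome 11, 24931761 to 24941103, minus strand) encodes a versican- and aggrecan-cutting protease that is known as an inducible gene of inflammation. Sham libraries held 30.6, 23.3, 252 and 65.2 CPM and CPB libraries 516, 641, 694 and 805. CPB+Nitrite libraries held 690, 60.0, 163 and 580 CPM. The highest CPB library was 1.56 times the lowest, with 2 of the CPB+Nitrite libraries (1 and 4) inside its range and the other 2 (2 and 3) below the level of sham 3. Within CPB+Nitrite the highest library was 11.5 times the lowest. These same libraries 1 and 4 lay on the CPB side of the first principal component, and 2 and 3 on the sham side. The log2 change was 2.84 (SE 0.82) in CPB against sham, and 4.07 without sham 3. In CPB+Nitrite it was -0.83 (SE 0.77) against CPB and 2.01 (SE 0.79) against sham, with 3.23 for the latter without sham 3 and 2.37 without CPB+Nitrite 2.

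Adamts4 (ENSRNOG00000003538, chromosome 13, 83670183 to 83680065, plus strand) encodes an aggrecan-cutting protease. Sham libraries held 1.08, 0.764, 6.38 and 2.13 CPM, CPB libraries 10.3, 31.6, 36.0 and 19.9, and CPB+Nitrite libraries 24.2, 18.0, 13.9 and 20.3. Every library with bypass lay above every sham library, the CPB+Nitrite libraries within the CPB range, and sham 3 was the highest of the sham libraries, as it was for Adamts1. In CPB against sham the log2 change was 3.24 (SE 0.59), or 4.22 without sham 3, then -0.35 (SE 0.54) in CPB+Nitrite against CPB and 2.88 (SE 0.59) in CPB+Nitrite against sham. These counts are uncertain, because the whole 9883 bp of the gene lies within Ppox on the opposite strand, it also overlaps Fcer1g, and the counting's strand setting is not given in the sources used here, although the library kit marks strand. Ppox, which encodes an enzyme of haem synthesis, fell from 28.1 ± 2.32 to 12 ± 2.20 CPM in CPB (log2 change -1.22, SE 0.29, edgeR adjusted p = 0.00661), the opposite direction to Adamts4. Fcer1g rose by 0.67 on the log2 scale (SE 0.25, edgeR adjusted p = 0.0464).

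Adamts5 (ENSRNOG00000057794, chromosome 11, 25000637 to 25047205, minus strand) encodes another aggrecan-cutting protease and lies next to Adamts1, 59533 bp away on the same strand. Sham libraries held 2.53, 4.43, 6.5 and 5.85 CPM, CPB libraries 5.02, 6.91, 3.57 and 7.10, and CPB+Nitrite libraries 9.30, 5.57, 9.45 and 7.87. The groups overlapped in every comparison, although 3 of 4 CPB+Nitrite libraries lay above every other library. For Adamts5 the log2 change was 0.23 (SE 0.32) in CPB against sham, 0.51 (SE 0.32) in CPB+Nitrite against CPB and 0.74 (SE 0.32) in CPB+Nitrite against sham. The log2 ratio of Adamts1 to Adamts5 counts was 3.69 ± 1.19 in sham, 6.91 ± 0.48 in CPB and 4.99 ± 1.44 in CPB+Nitrite (SD, n = 4 each), so these neighbours did not keep a fixed ratio.

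Adamts9 (ENSRNOG00000023257, chromosome 4, 125291490 to 125462929, minus strand) encodes a versican-cutting protease that is also required for the formation of cilia. Sham libraries held 8.68, 7.32, 10 and 11.5 CPM, CPB libraries 15.2, 26.7, 16.4 and 26.7, and CPB+Nitrite libraries 28.2, 19.6, 21.7 and 29.4. All 8 libraries with bypass lay above all 4 sham libraries, and the CPB and CPB+Nitrite groups overlapped. The log2 change was 1.18 (SE 0.23) in CPB against sham, 0.22 (SE 0.23) in CPB+Nitrite against CPB and 1.40 (SE 0.23) in CPB+Nitrite against sham, the smallest errors among the 7 genes.

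**Figure D3:**
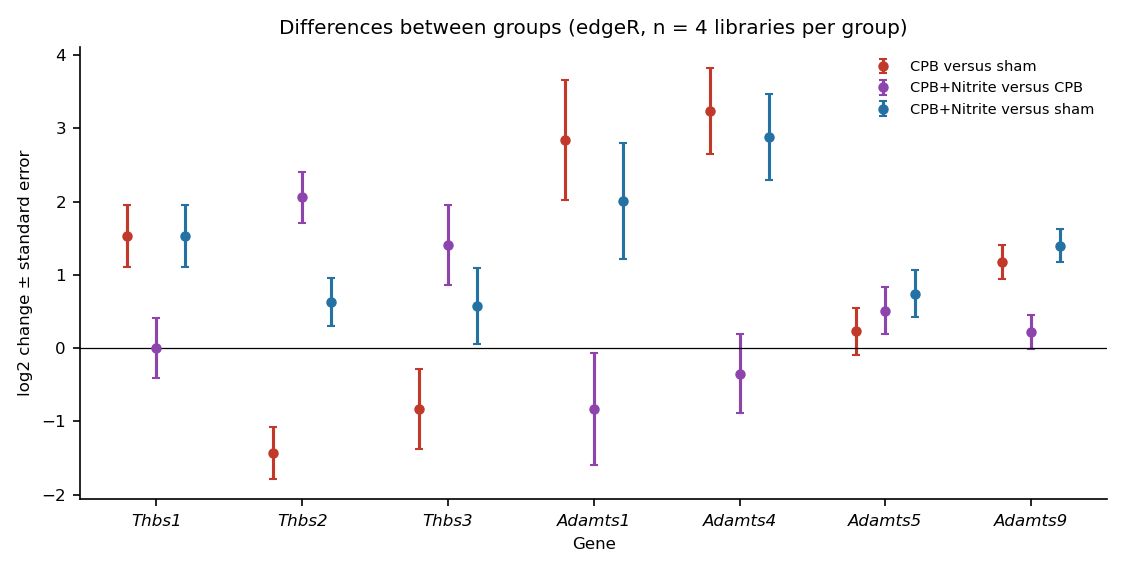
Log2 change of each gene (vertical axis, points with bars of 1 standard error, edgeR, n = 4 libraries per group) in the 3 comparisons, which share groups and are not independent. Adamts4 has the highest values against sham (3.24 and 2.88), and Thbs2 lies below 0 in CPB versus sham (-1.43) and above 0 in CPB+Nitrite versus CPB (2.06).

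For CPB+Nitrite against CPB, no member passed the threshold, and no gene of the whole table did (0.0%). At an unadjusted p below 0.05 in the same test, 2 members (Thbs2 and Thbs3) were counted, against 29.4% of all genes. DESeq2 passed 1 member, Thbs2, where it passed 14.7% of the genes it gave an adjusted p. Without CPB+Nitrite 1, edgeR again passed Thbs2 alone (log2 change 2.03), where 19.2% of all genes passed, so this library moved the count over all genes from 0 to 2816. Thbs2 was also the only member whose 2 groups did not overlap, against 12.7% of all genes.

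For CPB+Nitrite against sham, 2 members passed, Adamts4 and Adamts9, where 4.81% of all genes passed. Those with no overlap were 3 (Thbs1, Adamts4 and Adamts9), against 11.5% of all genes. These calls depended on single libraries, as did those over all genes, which numbered 705 of 14664 with every library. None of the 7 passed without CPB+Nitrite 4, sham 1, sham 2 or sham 4, where 0, 2, 0 and 1 of all genes passed. Without CPB+Nitrite 1, 1 member passed and 84 of all genes did. Without CPB+Nitrite 2, 4 members passed and 1804 of all genes did. Thbs1 also passed under 7 of 21 alternatives, namely DESeq2, median-of-ratios (RLE) factors, the authors' scaling factors, limma voom, a filter at a mean of at least 2 CPM, and without CPB+Nitrite 2 or CPB+Nitrite 3. Adamts1 also passed under 3, with limma voom and without CPB+Nitrite 2 or sham 3.

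Of 19 tested thrombospondin, ADAMTS and ADAMTS-like genes beside the 7, 11 fell in CPB against sham, 1 rose and 7 did not pass, where 21.5% of all genes fell and 21.7% rose. The median log2 change of the 19 was -0.88, while the median of the chosen 7, which the selection shaped, was 1.18. Thbs4, a thrombospondin of muscle and tendon, fell from 1.79 ± 0.459 to 0.345 ± 0.274 CPM (log2 change -2.36, SE 0.61, edgeR adjusted p = 0.00978). Comp was too low to test. The fibroblast, pericyte and smooth muscle markers moved the same way (7 of 12 fell, median -1.42), and had a median of 1.57 in CPB+Nitrite against CPB. Their part in the falls of the family genes was not tested.

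Of 15 other ADAMTS proteases 11 were tested, and 6 fell and none rose. Adamts16 fell from 9.90 ± 3.64 to 1.46 ± 0.612 CPM (log2 change -2.77, SE 0.43, edgeR adjusted p = 0.00116). Adamts2 and Adamts3, which remove the amino-terminal propeptide of collagens, fell by 2.85 and 2.31 on the log2 scale. The remaining falls were 2.6 for Adamts12, 1.64 for Adamts15 and 1.06 for Adamts10, which is linked to fibrillin microfibrils. These 6 calls held under every alternative that tested them. Adamts6, Adamts7, Adamts8, Adamts13 and Adamts17 did not pass. Adamts13, the protease of von Willebrand factor, had means of 12.6 ± 2.20 (sham) and 14.1 ± 1.61 CPM (CPB). Adamts14, Adamts18, Adamts19 and Adamts20 were too low to test.

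Among 7 ADAMTS-like genes, whose products keep the thrombospondin repeats and lack the protease domain, Adamtsl4 rose from 19.4 ± 3.24 to 47.7 ± 4.18 CPM (log2 change 1.30, SE 0.18, edgeR adjusted p = 0.00101). Adamtsl3 fell by 3.11 on the log2 scale (SE 0.40, edgeR adjusted p = 0.000968). Smaller falls of Adamtsl5 (0.88), Thsd4 (0.87) and Papln (0.69) passed, and each lost its call without CPB 1 and without CPB 3, among other libraries. Adamtsl1 and Adamtsl2 did not pass.

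**Figure D4:**
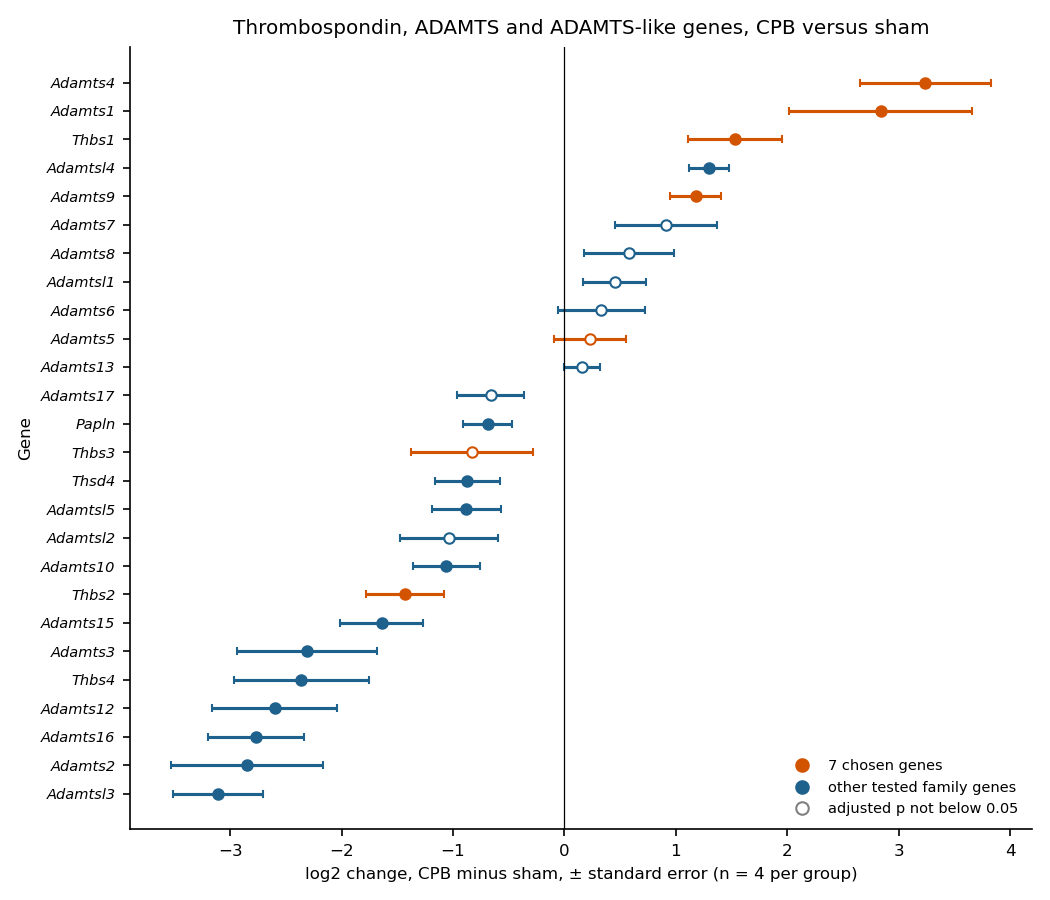
Log2 change in CPB minus sham (horizontal axis, points with bars of 1 standard error, n = 4 per group) for the 7 chosen genes and 19 other tested genes of the family (vertical axis, ordered by value); open points did not pass an edgeR adjusted p of 0.05. The chosen genes Adamts4, Adamts1 and Thbs1 hold the 3 highest values (3.24, 2.84 and 1.53), and the other filled points above 0 are Adamtsl4 (1.30) and the chosen gene Adamts9 (1.18). The choice of the 7 with group differences known shaped both sets.

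Between CPB+Nitrite and CPB, none of the 19 passed edgeR's test. DESeq2 passed 7 of the 19, where it passed 14.7% of all genes it gave an adjusted p. In edgeR, 6 of 11 other ADAMTS and 4 of 7 ADAMTS-like genes had an unadjusted p below 0.05, against 29.4% of all genes. CPB+Nitrite means were 4.22 ± 1.98 CPM for Adamts16, 2.18 ± 1.43 for Adamts2 and 2.63 ± 1.46 for Adamts12, against 1.46 ± 0.612, 0.463 ± 0.285 and 0.492 ± 0.143 in CPB. The 7 that DESeq2 passed were Adamts2, Adamts12, Adamts15, Adamts16, Adamtsl2 and Adamtsl3, all higher than in CPB, and Adamtsl4, which was lower. Against sham, none of the 19 passed edgeR's test. DESeq2 passed 3 of them, where it passed 2144 of 14821 genes, a similar share, so nothing about the family is read from this count.

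Partners of the family were taken from lists of receptors, substrates, inhibitors and activating enzymes. Of 11 tested receptors and uptake partners of thrombospondins, 5 rose in CPB against sham, 1 fell and 5 did not pass (median log2 change 0.53, against -0.05 for all genes). Cd47, the receptor through which the product of Thbs1 limits nitric oxide signalling, rose from 80.5 ± 8.21 to 209 ± 39.3 CPM (log2 change 1.38, SE 0.20, edgeR adjusted p = 0.00101). The integrin genes Itga3, Itga6 and Itgb1 rose by 2.08, 1.45 and 0.89 on the log2 scale. Itga3 was the only receptor to pass in CPB+Nitrite against sham (log2 change 1.72). None passed in CPB+Nitrite against CPB, where 4 of the 11 had a positive log2 change. There Cd47 stood at 111 ± 27.1 CPM in CPB+Nitrite, with a log2 change of -0.91 (SE 0.20, edgeR adjusted p = 0.0556). Lrp1, the uptake receptor, did not pass, with 32.8 ± 12.3 CPM for sham and 29.5 ± 12.2 for CPB.

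Of 9 tested substrates of the ADAMTS proteases, none passed in CPB against sham, and 3 had an unadjusted p below 0.05 in edgeR (median log2 change -0.17). Vcan, the versican gene, had means of 6.24 ± 2.50 (sham) and 5.75 ± 2.31 CPM (CPB). Of 6 inhibitors, Timp1 rose from 5.29 ± 1.91 to 99.6 ± 15.4 CPM (log2 change 4.23, SE 0.56, edgeR adjusted p = 0.000968), and A2m, a broad protease trap of plasma, rose by 2.74. Timp2 and Timp4 fell by 0.95 and 2.56, and the call for Timp2 was lost without sham 1, CPB 2 or CPB 3. Timp3, the main inhibitor of the proteoglycan-cutting ADAMTS enzymes, stood at 153 ± 59.7 CPM in sham and 115 ± 25.2 in CPB (edgeR adjusted p = 0.456). Among 4 proprotein convertases, which cut the propeptides of ADAMTS enzymes, Pcsk5 rose by 1.57 and the others did not pass. The median log2 change was -0.58 over the inhibitors and 0.14 over the convertases.

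Among genes of related function, 2 of 13 other matricellular genes rose in CPB against sham (Tnc by 3.54 and Spp1 by 1.61 on the log2 scale), and 3 fell, among them Smoc1 by 2.40 and Ccn3 by 1.42, the latter lost without sham 1, sham 2 or CPB 3. The list's median was -0.90. Of 14 genes of TGF-beta ligands, latency proteins and targets, 4 rose and none fell, among them Tgfbr2 (101 ± 15.3 to 212 ± 18.6 CPM, up by 1.07 on the log2 scale), Lrrc32 (up by 1.02) and Skil (up by 0.69). The call for Skil was lost without sham 1, sham 2, CPB 2 or CPB 3. Of 12 targets of YAP and serum response factor, Vcl rose by 1.06, while the smooth muscle genes Acta2 and Cnn1 fell by 2.61 and 2.87. Without sham 1, Cnn1 was at -1.0 and did not pass. Of 12 tested matrix metalloproteases 3 rose and 2 fell, with Mmp3 up by 2.98 and Mmp11 down by 2.23. Of 8 tested hyaluronan genes, the hyaluronan receptor Cd44 rose by 2.39 and the synthase Has1 by 3.37. Both Mmp3 and Has1 started near 0, with 0.127 ± 0.146 and 0.165 ± 0.193 CPM in sham. In CPB they reached 1.08 ± 0.596 and 1.72 ± 0.886 CPM. Median log2 changes were 0.40 for the TGF-beta list, 0.44 for the YAP and serum response factor targets, -0.51 for the metalloproteases and 0.71 for the hyaluronan genes.

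In CPB+Nitrite against sham, 11 genes of these lists rose and none fell. Over all genes 4.81% passed, and 80.1% of those calls were higher. By list, those that rose were 1 of 11 tested receptors, 1 of 6 inhibitors and 2 of 13 matricellular genes. They were also 3 of 14 TGF-beta genes, 2 of 12 metalloproteases and 2 of 8 hyaluronan genes. None passed among 9 substrates, 4 convertases and 12 YAP and serum response factor targets. Among them were Itga3, Timp1, Tnc, Spp1, Tgfbr2, Lrrc32, Mmp3, Mmp13, Cd44 and Tnfaip6, with log2 changes of 3.32 for Timp1 and 3.01 for Tnc. Each of the 11 lost its call without sham 1, without sham 2, without sham 4 and without CPB+Nitrite 4. In those fits 2, 0, 1 and 0 of all 14664 genes passed, against 705 with every library, so the losses are not particular to these genes.

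Levels of other cell types were set beside the members. Of 9 platelet markers, 1 had enough reads to test, Itga2b, which fell by 1.32 on the log2 scale. The platelet-restricted gene Pf4 stayed at or below 1.06 CPM in every library. Ppbp stayed at or below 0.054 CPM, and was at 0 in 3 sham, 3 CPB and all 4 CPB+Nitrite libraries. Neutrophil markers summed to 3.77 to 10.8 CPM (sham), 10.8 to 21.6 (CPB) and 15.3 to 18.0 (CPB+Nitrite), and of the 5 tested 3 rose in CPB, 1 fell and 1 did not pass. The sums of macrophage markers were 44.3 to 115 CPM for sham, 44.7 to 68.3 for CPB and 75.1 to 85.8 for CPB+Nitrite. Podocyte markers, at 277 to 528, 241 to 453 and 394 to 1014 CPM, and urothelial markers, at 0.918 to 166, 0.540 to 6.36 and 2.53 to 113 CPM, varied within groups, with sham 1 and CPB+Nitrite 1 highest for urothelium. Their part in the levels of the members was not tested.

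The genes with the pattern most like each member over the 12 libraries were found by Pearson correlation of log2 CPM among 12161 genes with a symbol and a mean of at least 2 CPM. The 3 groups and their shared libraries contribute to these values, so the correlation after removing each group's mean follows in each case, and none has a p-value. Adamts1 was most like Sat1 (0.989 and 0.973) and Mcl1 (0.989 and 0.979), and Adamts4 most like Il6 (0.967 and 0.821), Junb (0.961 and 0.862) and Atf3 (0.956 and 0.842). Thbs1 was most like Sh3bgrl2 (0.946 and 0.952) and Adamts9 most like Kif13b (0.962 and 0.864). Thbs2 was most like the collagen gene Col8a2 (0.913 and 0.814), Thbs3 most like Gpx7 (0.943 and 0.908) and Adamts5 most like Fzd6 (0.855 and 0.838). Between members, the highest value was 0.918 for Thbs1 and Adamts9 (0.860 after removing group means). Thbs1 and Thbs2 gave -0.174 and 0.005, and Adamts1 and its neighbour Adamts5 0.487 and 0.572.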

How the data were processed

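RNA sequencing of 12 rat kidney libraries was analysed from the processed tables. Per the labels' protocols, total RNA was treated with DNase and made into strand-marking libraries with a directional kit. Per the submitters' processing notes, bcl2fastq 2.19, cutadapt 1.18, Salmon 1.2.1, R 3.5.1 and the build mRatBN7.2 were used. The authors deposited unnormalised estimated counts per Ensembl gene (33.1% of non-zero values were not whole, tolerance 1e-06), and a second deposited table of scaled signal, used for symbols, coordinates and an alternative scaling.

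Counts were rounded, and edgeR 4.0.16 in R 4.3.3 kept 14664 genes (filterByExpr, minimum count 10), scaled libraries with TMM factors and fitted all 12 libraries in 1 quasi-likelihood model without covariates. Tests were two-sided, and Benjamini-Hochberg adjusted p-values below 0.05, over every gene tested, counted as past the threshold. Confidence intervals are at 95% with 9 residual degrees of freedom. Precision rests on 4 libraries per group and 16.8 to 25.8 M reads (M, mega) per library. Log2 levels used a prior count of 2.

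Groups came from the treatment label and replicate numbers from the titles. The members and all gene lists were chosen with earlier results of these data known. Named genes were all members and tested family genes, up to 4 past the threshold with the smallest p per list, up to 4 most abundant markers per cell type, and the 3 genes most like each member. Vcan, Lrp1, Timp3, Pf4, Ppbp, Ppox and Fcer1g were added after their values were seen, as key partners or overlapping genes. Levels were not compared between genes because the files hold no transcript lengths. Alternatives were other scaling factors, other filters, a replicate block, DESeq2 1.42.0, limma 3.58.1 voom with sample weights, fits of only the 2 groups compared and leaving out each library.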

Additional observations from a re-analysis of the deposited data

How the results depend on the processing

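For the 7 genes, 438 alternative values were computed over 3 comparisons, of which 405 kept their direction and their side of the threshold, 13 lost a call, 12 gained one and 8 changed sign. All sign changes were of Thbs1 in CPB+Nitrite against CPB, at -0.02 with DESeq2, RLE factors or no filter, -0.01 with the replicate block, and -0.36 to 0.23 on leaving out 1 library. In CPB against sham, 5 members passed under every alternative. In CPB+Nitrite against CPB, 0 passed, but 1 with DESeq2 and 0 to 1 on leaving out 1 library. In CPB+Nitrite against sham 2 passed, 4 with limma voom, 0 with only the 2 groups compared, 0 with the replicate block and 0 to 4 on leaving out 1 library. For the 19 other family genes, CPB+Nitrite against CPB gave 0, but 7 with DESeq2 and 0 to 7 on leaving out 1 library. Against sham the 0 became 3 with DESeq2, 1 with RLE factors, 2 with the authors' factors, 5 with voom, 2 with the mean of at least 2 CPM and 0 to 5 on leaving out 1 library. The cause was not tested.

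Scaling by total counts alone shifted the all-gene median of the log2 change in CPB against sham from -0.05 to -0.24, with no change of sign for a member. The residuals of libraries with the same number correlated at -0.107 to 0.381, and those with different numbers at -0.313 to 0.352. These ranges overlap and do not settle whether the numbers pair libraries, which the main fit did not assume. Over all genes, calls in CPB+Nitrite against sham numbered 705, but 28 with the replicate block and 0 with only the 2 groups compared. Thbs3 had no value with the mean of at least 2 CPM. Depth limits Thbs3 most, with as few as 4 reads in CPB 3.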
